A study of Homo sapiens with 12 samples.

Results

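Respiratory complex assembly factors are proteins that build the mitochondrial respiratory complexes without remaining in the finished enzymes. A list of 48 of them was examined in venetoclax-resistant diffuse large B-cell lymphoma (DLBCL) cells. A member was taken as the row of the count files whose Ensembl identifier carries the member's symbol in GENCODE release 44. This found 47 of the 48 genes among the 60675 identifiers that each file lists, and SCO2 was not analysed here. The 47 comprise 15 factors for complex I, 3 for complex II, 5 for complex III, 21 for complex IV and 3 for complex V. RNA-sequencing covered 2 human DLBCL cell lines, SUDHL6 and SUDHL16, each as venetoclax-sensitive parental cells and as a resistant line derived from them, with 3 libraries in each of the 4 groups. Venetoclax inhibits the anti-apoptotic protein BCL2. The resistant cells had been selected under slowly rising venetoclax until they grew at 10 times the original IC50 or more. They were kept in the drug thereafter. For experiments, parental and resistant cells were put in fresh medium, and it is not stated whether that held venetoclax. Drug exposure and acquired resistance therefore cannot be told apart. The labels carry no genotype for any line, and the sources used here do not say whether a resistant line is 1 clone.

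The electron transport chain consists of complexes I to IV, which pass electrons from NADH and succinate to oxygen. Complexes I, III and IV pump protons, and complex V, the ATP synthase, uses the proton gradient to make ATP. Each complex is put together in steps from nuclear-encoded and, except for complex II, mitochondrially encoded subunits, and assembly factors stabilise the intermediates, insert heme, copper, flavin and iron-sulfur groups, and hold newly made subunits in the inner membrane. Inherited loss of many of these factors lowers the activity of the complex they serve.

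The libraries are named by their labels, CE-7 to CE-9 (SUDHL6 parental), CE-10 to CE-12 (SUDHL6 resistant), CE-25 to CE-27 (SUDHL16 parental) and CE-28 to CE-30 (SUDHL16 resistant). The total counts were 33992784 to 40885665 in SUDHL6 and 4131927 to 22068221 in SUDHL16. Library preparation kit and sequencing instrument differed between the lines, so they and the line cannot be told apart, but were shared by the parental and resistant libraries of a line. The lowest total was that of CE-26, in which 55.4% of the counts fell on protein-coding genes and 31.9% on identifiers outside GENCODE 44, against 84.3% to 90.2% and 1.61% to 5.06% in the 5 other SUDHL16 libraries. Results in SUDHL16 are therefore given with and without CE-26. The biological coefficient of variation in edgeR was 0.0516 in SUDHL6, 0.468 in SUDHL16 and 0.339 in SUDHL16 without CE-26, so that the median standard error of a member's log2 fold change was 0.05, 0.31 and 0.27, respectively. The B-cell markers MS4A1, CD79A, CD79B, PAX5 and CD22 were abundant in every library, from 222.6 CPM for CD79B in its lowest library to 2160.4 CPM for MS4A1 in its highest. The 6 T and NK cell markers summed to 3.22 to 28.4 CPM, with CD3D and CD4 at 0 in all SUDHL6 libraries. Myeloid markers reached at most 12.1 CPM, and epithelial and stromal markers at most 25.1 CPM, both in a SUDHL16 parental library.

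All 47 assembly factors had counts in every library and passed the filter on low counts in every comparison. Together they received 0.155% to 0.162% of the counts in SUDHL6 and 0.137% to 0.148% in SUDHL16. CPM are counts scaled to a common library size. Per kilobase of exon (CPM per kb), their levels in SUDHL6 parental cells had a median of 8.75 and ran from 1.59 for COX18, an inserter of the subunit COX2 into the inner membrane, to 21.5 for TIMMDC1, a complex I factor of the inner membrane. TIMMDC1 also had the highest level in SUDHL6 resistant cells (19.9 CPM per kb), where the lowest was CMC2, a complex IV factor (1.48 CPM per kb). In SUDHL16 resistant cells the levels spanned 0.479 CPM per kb for NDUFAF2, a late-acting complex I chaperone, to 24.4 for SDHAF4, which binds the flavoprotein subunit of complex II. The SD of that SDHAF4 level was 18.8, with 66.0 CPM in CE-28 against 23.95 and 15.3 CPM in CE-29 and CE-30. The heat map of all libraries shows the 6 SUDHL6 columns nearly uniform and the SUDHL16 columns, CE-26 most of all, far more varied.

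**Figure D1:**
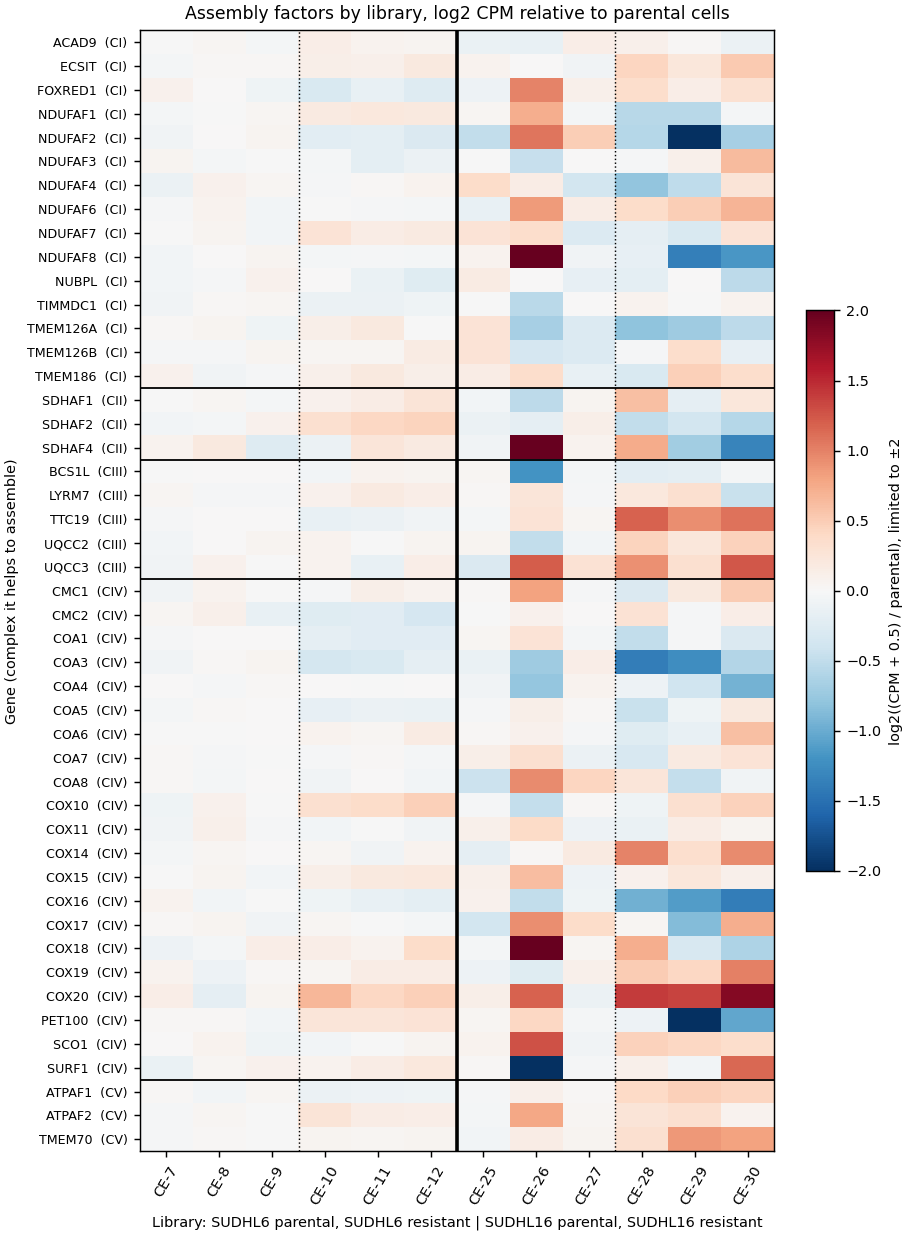
Heat map of the 47 assembly factors (rows, with the complex each serves) in the 12 libraries (columns). Color is log2((CPM + 0.5) / parental), where parental is the mean log2 value of CE-7 to CE-9 for SUDHL6 and of CE-25 and CE-27 for SUDHL16, limited to ±2. The SUDHL6 columns stay near 0, CE-26 has the deepest single cells (SDHAF4, COX18, NDUFAF8 and SURF1), and COX20 and TTC19 are red in all 3 SUDHL16 resistant libraries.

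Promoter sequence was examined because the promoters of respiratory subunit genes are known for sites of the transcription factors NRF1, ETS family members and YY1. Windows from 250 bases before to 50 bases after the RefSeq transcription start (GRCh38.p14) were available for 42 of the 47 genes and were searched on both strands. The ETS letters CCGGAAGT occurred in the windows of 11 of the 42 members (26.2%), against 7.11% of 15345 protein-coding genes. The NRF1 letters (GCGCA, any base, then GCGC) occurred in 7 members (16.7%), against 9.72% of protein-coding genes, and the YY1 letters AAGATGGC in 5 members (11.9%), against 4.74%. No motif lies within another. All 47 members passed the filter on low counts, and no share is given for such genes alone. The ETS match nearest the start of each of the 11 members is printed here with its flanks. It is given 5′ to 3′ on the strand of the gene, with the motif in capitals. These windows were chosen for the motif, so that they share it is no result.
COX10 (chr17:14069474-14069503, plus strand): gagcccgcccgCCGGAAGTggcggcccgga
COX15 (chr10:99732117-99732146, minus strand): cgctgcccgacCCGGAAGTgcttctctttt
COX17 (chr3:119677378-119677407, minus strand): tagagcgactgCCGGAAGTgactgcggacg
SCO1 (chr17:10697559-10697588, minus strand): gactccttccgACTTCCGGaggaagcggaa
COA1 (chr7:43729527-43729556, minus strand): agcagccgacgCCGGAAGTctctactgctc
COA4 (chr11:73876963-73876992, minus strand): tccgccccttcCCGGAAGTgagtccccgag
COA5 (chr2:98608506-98608535, minus strand): gccgcggcccgCCGGAAGTtgttgccgctg
LYRM7 (chr5:131170694-131170717, plus strand): ctgcgCCGGAAGTgactgtgcccc
SDHAF2 (chr11:61430093-61430122, plus strand): gctaggagttcCCGGAAGTgcccgcgcagc
TIMMDC1 (chr3:119498460-119498489, plus strand): cccgccctcaaCCGGAAGTcttttgggctc
TMEM186 (chr16:8797621-8797650, minus strand): cggtgggatttACTTCCGGcagcaggtggt

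In 9 of these the motif read on the strand of the gene, and in SCO1 and TMEM186 on the other. The first base of the motif lay between 22 bases before and 11 bases after the start in COA1, COA5, COX10, COX15, COX17, SDHAF2 and TMEM186, and up to 245 bases before it in LYRM7. A match is a description of the letters and no evidence of binding. None of the 3 motifs was found in the windows of TTC19, COX16 and COX20, whose changes in SUDHL16 are described further on.

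To determine whether the assembly factors changed with acquired resistance in SUDHL6, the resistant and parental libraries were compared by the quasi-likelihood test of edgeR (two-sided), with Benjamini-Hochberg adjustment over all 16662 genes tested. The changes were small and went both ways. No assembly factor met the limits of an adjusted p under 0.05 together with a change of at least 1.5-fold, which 8.96% of all genes met, and DESeq2 and limma voom also called 0. At an adjusted p under 0.05 and any fold, 19 of the 47 passed, where 37.3% of all genes passed. Of these, 10 were higher (17.7% of all genes) and 9 lower (19.7%). At an unadjusted p under 0.05 the number was 21 (45.2% of all genes). The median log2 fold change of the 47 was 0.02 and that of all genes −0.00, with 27 of 47 above 0 (50% of all genes). The members ranged from −0.29 for COA3 to 0.53 for COX20. Parental and resistant libraries did not overlap for 25 members (47.9% of all genes), 15 higher and 10 lower. In RNA from a whole culture, a lower level in each cell and fewer cells with the transcript cannot be told apart.

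The largest rise in SUDHL6 was that of COX20, which holds newly made COX2 for copper insertion. COX20 had 17.2, 13.6 and 16.2 CPM in the parental libraries and 24.9, 21.02 and 21.8 CPM in the resistant libraries, and the groups did not overlap. The log2 fold change was 0.53 ± 0.09 (SE, n = 3 per group, edgeR adjusted p = 5.0e-04). Leaving out CE-7 took it to 0.60, just past the 1.5-fold limit.

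COX10 and COX15 act in sequence to convert heme B to heme A, the cofactor of the subunit COX1. COX10 had 15.2, 17.1 and 16.1 CPM in parental and 20.3, 20.97 and 22.7 CPM in resistant libraries, a rise of 0.40 ± 0.07 on the log2 scale (SE, n = 3 per group, edgeR adjusted p = 4.6e-04). COX15 rose less, from 78.3, 81.6 and 75.8 CPM to 84.9, 90.1 and 90.9 CPM (0.17 ± 0.04 on the log2 scale, edgeR adjusted p = 0.00174). All resistant libraries lay above all parental ones for both heme A enzymes. Among the other complex IV factors, PET100 rose by 0.26.

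The complex IV factors that fell in SUDHL6 were COA3, CMC2, COA1, COA5 and COX16. COA3, which binds newly made COX1, had 12.9, 13.9 and 14.2 CPM in parental and 10.6, 10.97 and 12.1 CPM in resistant libraries (a log2 difference of −0.29 ± 0.08, adjusted p = 0.00999 in edgeR). COA1, which also acts on COX1 and in the early complex I intermediate, had 72.7, 74.5 and 73.9 CPM in parental and 64.9, 63.2 and 62.6 CPM in resistant libraries. Its log2 fold change was small, −0.21 ± 0.03, but the spread was smaller still (edgeR adjusted p = 6.1e-05), and the groups did not overlap. CMC2 fell by 0.28, COA5 by 0.14 and COX16 by 0.14 on the log2 scale. Of the 21 complex IV factors, 9 thus passed the adjusted p in SUDHL6 (37.3% of all genes), with a median log2 fold change of −0.00. Of these 9, 4 were higher (17.7% of all genes) and 5 lower (19.7%).

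The complex I factors were split evenly in SUDHL6, with 3 of 15 higher (17.7% of all genes) and 3 lower (19.7%) at an adjusted p under 0.05. Their median log2 fold change was 0.02. NDUFAF1 and ECSIT, which belong to the intermediate assembly complex that builds the membrane arm, rose by 0.20 and 0.14, as did NDUFAF7, a methyltransferase acting in complex I assembly, by 0.20. TIMMDC1, which works with the same intermediate complex, fell by 0.11, FOXRED1 fell by 0.24 and NDUFAF2 fell by 0.24. ACAD9 (0.09) and TMEM126B (0.08), the remaining core members of the intermediate complex, did not pass (edgeR adjusted p = 0.148 and 0.222).

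For complex II, SDHAF2, needed to attach flavin to the subunit SDHA, rose in SUDHL6. It had 19.5, 19.7 and 21.6 CPM in parental and 25.3, 27.04 and 27.9 CPM in resistant libraries. No libraries of the groups overlapped, and the log2 fold change was 0.40 ± 0.06 (SE, n = 3 per group, edgeR adjusted p = 2.4e-04). SDHAF1, which serves the iron-sulfur subunit, was at 0.17 (edgeR adjusted p = 0.0615) and SDHAF4 at 0.11 (0.554).

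For complex III, LYRM7, a chaperone of the Rieske iron-sulfur protein, rose by 0.14 in SUDHL6 and TTC19, which clears fragments of that protein from the enzyme, fell by 0.12. BCS1L, which moves the Rieske protein across the inner membrane, and the cytochrome b factors UQCC2 and UQCC3 had log2 fold changes of 0.02 to 0.04 and did not pass. Among the ATP synthase factors, ATPAF2, a chaperone of the alpha subunit, rose by 0.18, while ATPAF1 (−0.11), a chaperone of the beta subunit, and TMEM70 (0.05), which helps to form the ring of c subunits, did not pass.

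**Figure D2:**
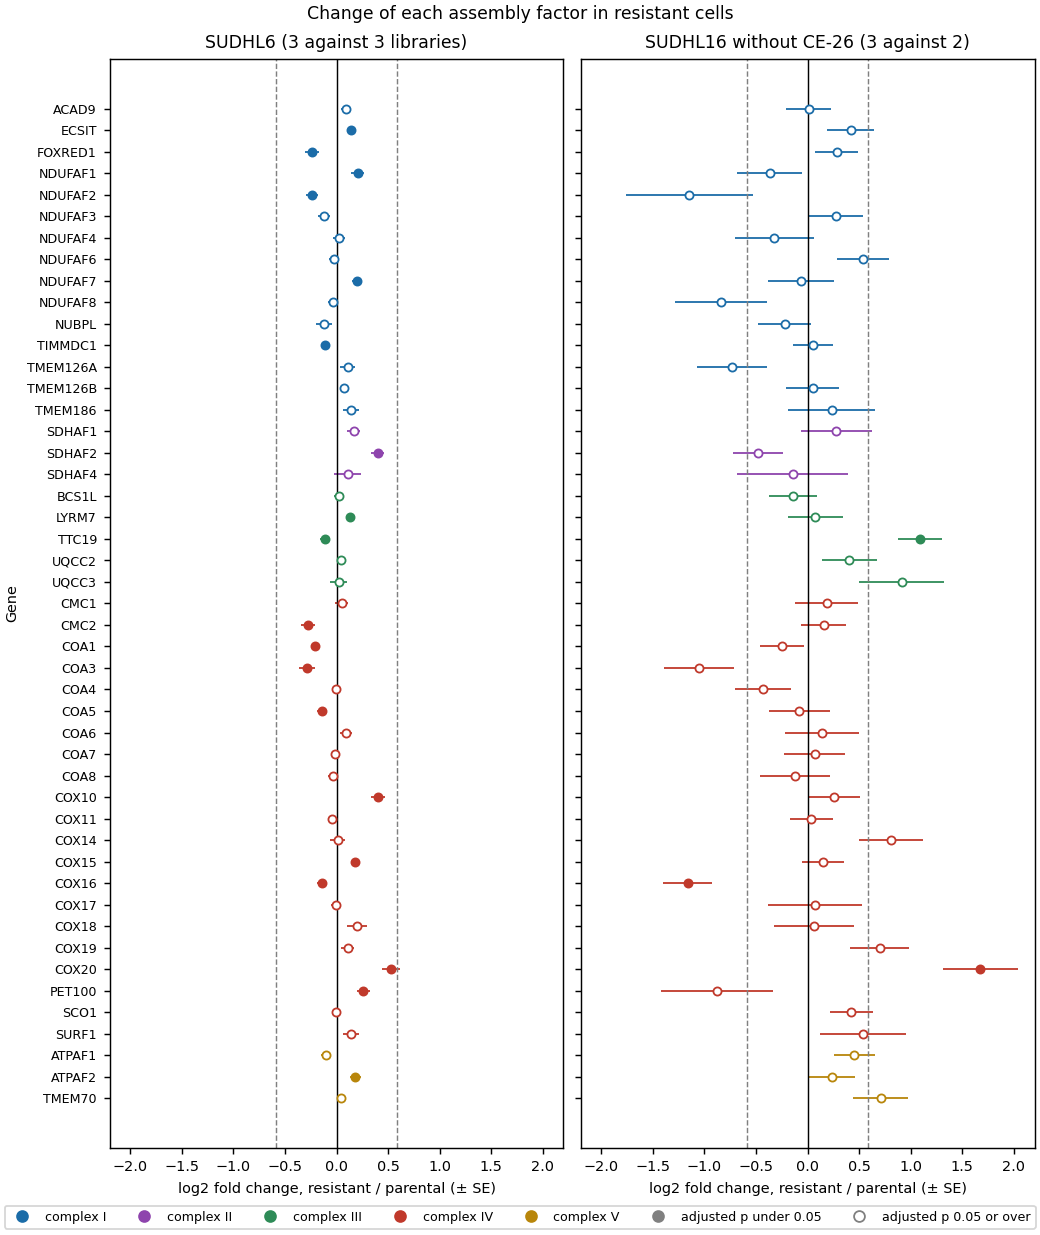
Log2 fold change of each of the 47 assembly factors (resistant over parental, ± SE) in SUDHL6 (left, 3 against 3 libraries) and in SUDHL16 without CE-26 (right, 3 against 2). Colors mark the complex, filled points an adjusted p under 0.05, and dashed lines a 1.5-fold change. The 19 filled points on the left all lie within the dashed lines, whereas the 3 on the right (TTC19, COX20 and COX16) lie outside them. Standard errors were larger on the right, so only large changes could pass there.

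In SUDHL16, fewer assembly factors passed and the changes that did were larger. The median standard error of a member was 0.31, or 0.27 without CE-26, against 0.05 in SUDHL6. Only a large change could therefore pass in SUDHL16, and the contrast of sizes is no result about the lines. With all 6 libraries, 1 of 47 was called, TTC19, where 5.3% of 15708 genes were called (3.2% higher), and 9 had an unadjusted p under 0.05 (19.1% of all genes). The range ran from −2.23 for NDUFAF8 to 1.16 for COX20. The median log2 fold change was −0.07, with 21 of 47 above 0 (49.1% of all genes), but this sign depended on the scaling, being 0.11 with library totals and −0.19 with upper-quartile scaling. Parental and resistant libraries did not overlap for 14 members (26.6% of all genes), 8 higher and 6 lower. Without CE-26, 3 of 47 were called, TTC19 and COX20 higher and COX16 lower, where 10% of 16280 genes were called (6.73% higher and 3.32% lower). Then 7 had an unadjusted p under 0.05 (23.3% of all genes), the median was 0.07 beside 0.05 for all genes, and 30 of 47 were above 0 (52.9% of all genes). The groups did not overlap for 22 members (42.2% of all genes), 15 higher and 7 lower.

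TTC19 was the assembly factor called in SUDHL16 both with and without CE-26. It had 38.3, 47.9 and 40.7 CPM in parental libraries and 90.3, 75.6 and 84.5 CPM in resistant libraries. Every resistant library was well above every parental one, CE-26 included. The log2 fold change was 0.99 ± 0.21 (SE, n = 3 per group, edgeR adjusted p = 0.0346), and 1.09 ± 0.21 without CE-26 (adjusted p = 0.0151). With all 6 libraries, the call was lost when any library other than CE-26 was left out (edgeR adjusted p between 0.10 and 0.15). Library totals and no filter were among the other settings in which it was lost, and it held in 5 of the 13 alternatives.

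COX20 had 4.02, 8.95 and 3.35 CPM in SUDHL16 parental libraries and 10.5, 10.2 and 14.4 CPM in resistant libraries. The groups did not overlap, although CE-26, with the highest parental value, came close. With all 6 libraries the log2 fold change came to 1.16 ± 0.48 (edgeR adjusted p = 0.229) and without CE-26 to 1.67 ± 0.36 (adjusted p = 0.0241). With CE-26 kept, COX20 passed in 2 of the alternatives, limma voom with quality weights (adjusted p = 0.00434) and the fit of both lines together (0.012). The latter gave both lines a shared estimate of the spread, which was smaller in SUDHL6, so its p-values for SUDHL16 may be too small.

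COX16, which brings COX1 and COX2 together, had 43.98, 29.3 and 39.1 CPM in SUDHL16 parental libraries and 20.97, 18.8 and 15.5 CPM in resistant libraries. All resistant values were below all parental values. On the log2 scale the difference was −1.03 ± 0.26 (edgeR adjusted p = 0.0609) and −1.16 ± 0.24 without CE-26 (adjusted p = 0.0193). Across the 13 alternatives to the fit of all 6 libraries (edgeR, DESeq2 or limma voom), the adjusted p ran from 0.00318 to 0.217. In 7 of them COX16 stayed uncalled. Without CE-26, the calls of TTC19, COX20 and COX16 were each lost when CE-25 or CE-27 was also left out, which leaves 1 parental library.

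The other members with large differences in SUDHL16 did not pass. COA3 had 17.3, 11.4 and 20.7 CPM in parental and 6.97, 7.72 and 12.5 CPM in resistant libraries (log2 fold change −0.87 ± 0.38, edgeR adjusted p = 0.259, and −1.05 ± 0.34, 0.0925, without CE-26), and CE-26 and CE-30 overlapped. COX14, a partner of COA3 on newly made COX1, had 11.6, 13.4 and 15.0 CPM in parental and 26.8, 16.8 and 25.8 CPM in resistant libraries, which did not overlap (0.79 ± 0.30 on the log2 scale, edgeR adjusted p = 0.189). TMEM70 had 15.5, 17.9 and 16.6 CPM in parental and 20.1, 29.7 and 28.6 CPM in resistant libraries, again without overlap (0.65 ± 0.27, adjusted p = 0.229). Each of these 3 passed the adjusted p under at least 1 alternative fit, COA3 with limma voom (0.0169) and COX14 (0.0181) and TMEM70 (0.0148) when both lines were fitted together. The values of COX14 and TMEM70 may be too small, since that fit shared the spread between the lines.

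By complex, the 15 complex I factors had a median log2 fold change of −0.13 in SUDHL16 and 0.01 without CE-26, and the 21 complex IV factors −0.13 and 0.07. The 5 complex III factors had a median of 0.40 both with and without CE-26, and 4 of the 5 were above 0, with TTC19 the one called. For the 3 complex V factors the medians were 0.41 and 0.45, and for the 3 complex II factors −0.43 and −0.14. In the fits of SUDHL16 alone, edgeR called no complex I, complex II or complex V factor. An unadjusted p under 0.05 with all 6 libraries (19.1% of all genes) was reached by 2 complex I factors, 0 complex II factors and 1 complex V factor.

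CE-26 decided several values. It lay above the 5 other SUDHL16 libraries for 18 of the 47 members (38.3%, against 30.7% of all genes) and below them for 10 (21.3%, against 31.8%). SDHAF4 had 259.3 CPM in CE-26, against 37.4 and 41.1 CPM in the other parental libraries and 66.0, 23.9 and 15.3 CPM in the resistant libraries. Its log2 fold change was −1.67 with CE-26 and −0.14 without it. COX18 had 233.8 CPM in CE-26, against 48.1 and 51.0 CPM, and went from −1.11 to 0.06. NDUFAF8, which stabilises the complex I factor NDUFAF5, had 69.2 CPM in CE-26 against 12.1 and 10.9 CPM, and went from −2.23 to −0.84. SURF1, needed for the early steps of complex IV assembly, went the other way, with 2 reads (0.69 CPM) in CE-26 against 10.8 and 10.5 CPM, and its log2 fold change went from 0.998 to 0.54. The sign of the log2 fold change turned for 11 of the 47 members when CE-26 was left out.

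**Figure D3:**
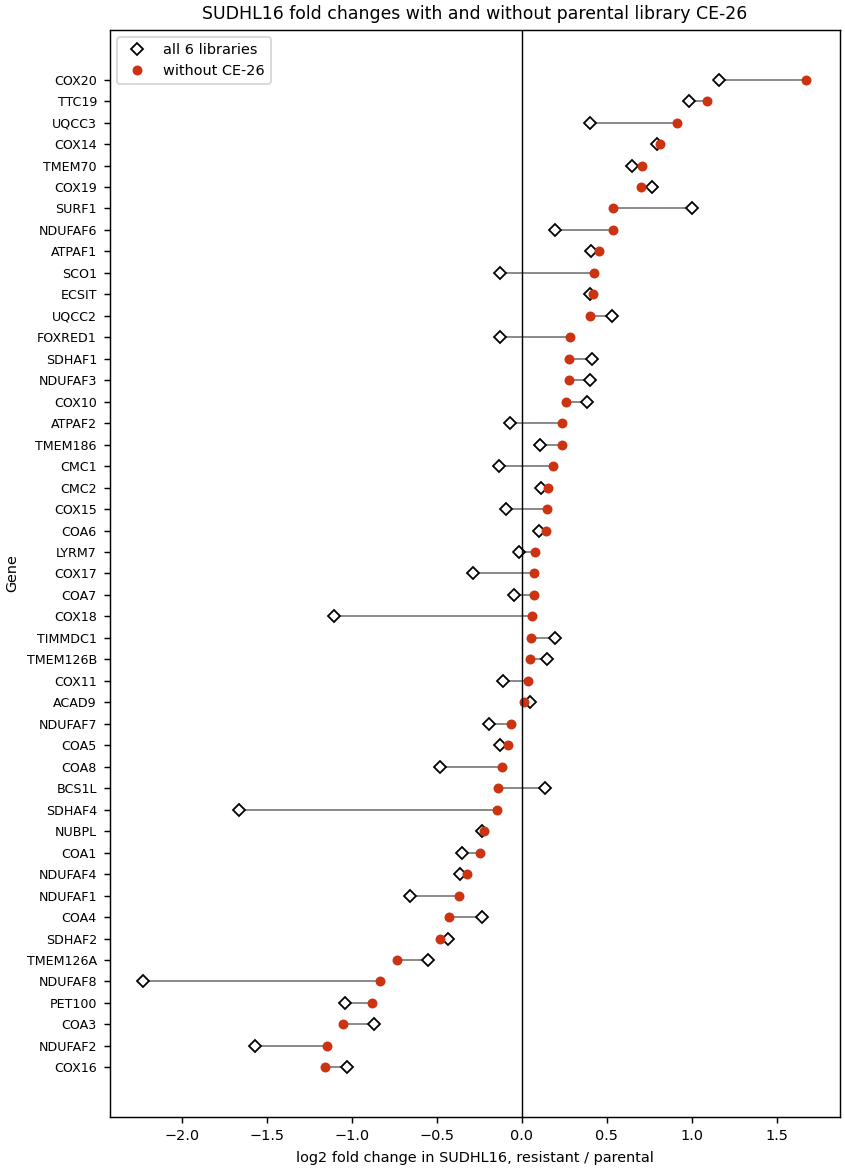
Log2 fold change of the 47 assembly factors in SUDHL16 (resistant over parental) with all 6 libraries (open diamonds) and without CE-26 (red points), joined by a line for each gene. The lines are longest for SDHAF4, NDUFAF8 and COX18, whereas TTC19 and COX16 hardly move.

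Next, whether resistance went with different changes in the 2 lines was tested as the interaction of line and resistance in one edgeR fit. The lines share no libraries. The fit gave both lines a shared estimate of the spread per gene. The biological coefficient of variation, fitted by line, was 0.0516 in SUDHL6 and 0.468 in SUDHL16. The standard error of the TTC19 difference, 0.16, was below the 0.21 of its change in SUDHL16 alone. The p-values of the interaction may thus be too small. The members that differed were TTC19 and SDHAF2 with all libraries (7.16% of 19621 genes had an adjusted p under 0.05), and TTC19, SDHAF2, COX16, COX20, ATPAF1 and TMEM126A without CE-26 (14% of 20959 genes). At an unadjusted p under 0.05 there were 11 members (21.8% of all genes) and 18 members (27%), respectively. TTC19 rose in SUDHL16 but in SUDHL6 it had 38.2, 39.2 and 39.1 CPM in parental and 34.9, 35.8 and 36.9 CPM in resistant libraries. Thus within each line the groups of TTC19 did not overlap, and the directions were opposite. The lines were scaled separately and differ in kit and instrument, so their levels of TTC19 are not compared. The difference of the log2 fold changes (SUDHL16 minus SUDHL6) was 1.14 ± 0.16 for TTC19 (SE, edgeR adjusted p = 0.00129). It passed in all 17 alternatives, with edgeR adjusted p between 2.77e-04 and 0.0123, but each of them shared the spread in the same way. Among the 17, the fit without CE-26 is counted more than once.

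SDHAF2 differed in the opposite sense. In SUDHL16 it had 21.4, 20.3 and 25.02 CPM in parental and 16.3, 17.7 and 15.5 CPM in resistant libraries, without overlap (log2 fold change −0.43 ± 0.25, edgeR adjusted p = 0.404). SDHAF2 therefore separated the groups in both lines, upward in SUDHL6 and downward in SUDHL16. The difference between the lines was −0.81 (edgeR adjusted p = 0.0429) and −0.92 without CE-26 (adjusted p = 0.00465), and it passed in 4 of 17 alternatives. The 4, like the 17, count the fit without CE-26 more than once.

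In the edgeR fit described, the other differences passed without CE-26 and not with it. With CE-26 kept, COX16 also passed under upper-quartile scaling and with protein-coding genes only, and PET100 and TMEM70 passed when CE-28 was left out. COX20 was higher in the resistant cells of both lines, with a difference of 1.11 (edgeR adjusted p = 0.0213), and COX16 lower in both, with a difference of −1.07 (adjusted p = 0.00213). ATPAF1 had 42.1, 39.7 and 42.7 CPM in SUDHL6 parental and 38.1, 38.6 and 39.1 CPM in SUDHL6 resistant libraries, and 33.2, 36.2 and 34.1 CPM in SUDHL16 parental and 44.7, 47.2 and 45.3 CPM in SUDHL16 resistant libraries. Neither pair of groups overlapped, and the directions were opposite, with a difference of 0.52 (edgeR adjusted p = 0.0272). TMEM126A, which helps to assemble the ND4 module of complex I, had 16.6, 17.1 and 15.5 CPM and then 17.9, 18.8 and 16.2 CPM in SUDHL6, which overlapped. In SUDHL16 it had 13.6, 6.89 and 9.19 CPM and then 6.16, 6.63 and 7.61 CPM, where CE-26 lay within the resistant values, and the difference between the lines without CE-26 was −0.88 (edgeR adjusted p = 0.0423).

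**Figure D4:**
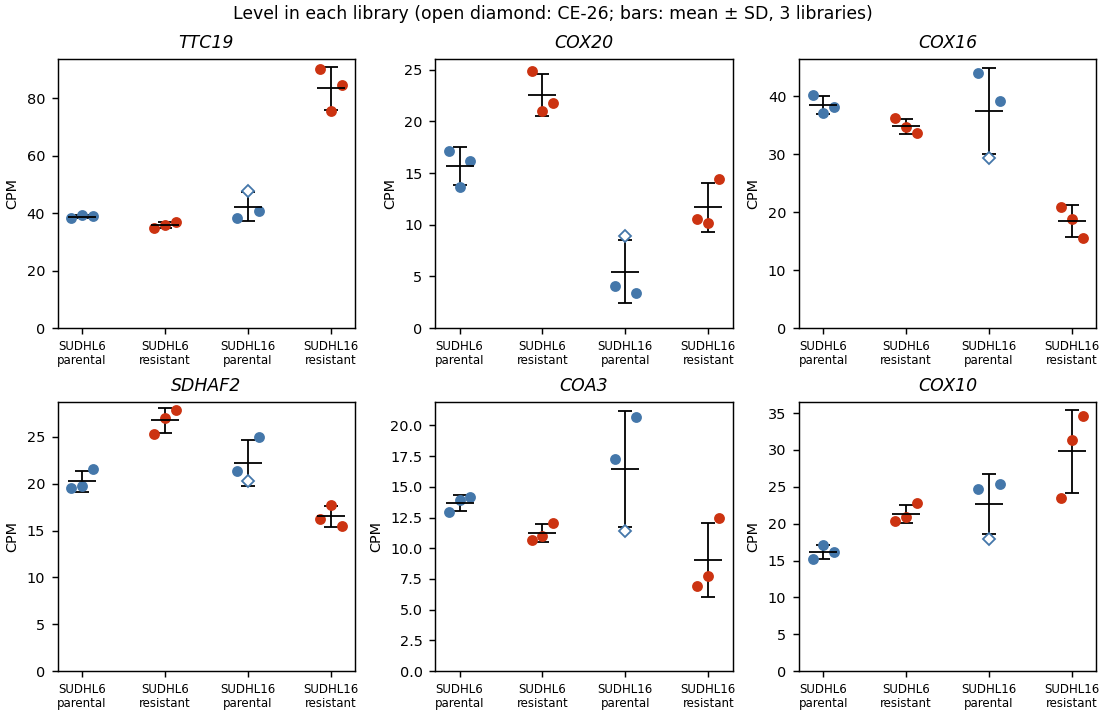
CPM of TTC19, COX20, COX16, SDHAF2, COA3 and COX10 in each library of the 4 groups (points), with the mean ± SD of 3 libraries (bars). Open diamonds mark CE-26. TTC19 is higher in the 3 SUDHL16 resistant libraries than in the SUDHL16 parental ones. SDHAF2 is higher in resistant cells of SUDHL6 and lower in those of SUDHL16, each against the parental cells of its line.

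Across the set, the sign of the log2 fold change was the same in both lines for 29 of 47 members (61.7%), against 49.2% of all genes, and for 28 of 47 (59.6%, against 50.1%) without CE-26. Of the 19 members that passed the adjusted p in SUDHL6, 9 had the same sign in SUDHL16 and 11 without CE-26. COX10 was among them, with 24.7, 17.9 and 25.3 CPM in SUDHL16 parental and 23.5, 31.3 and 34.5 CPM in SUDHL16 resistant libraries, which overlapped (log2 fold change 0.39 ± 0.27, edgeR adjusted p = 0.495). COX15 was at −0.09 in SUDHL16 and at 0.15 without CE-26, and COA1 at −0.35 and −0.25, none of which passed.

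The position of the genes was examined because several members lie close together. TTC19 (chr17:15999784-16045015, plus strand, 10 exons in the canonical transcript, GRCh38), COX10 (chr17:14069490-14231736), SCO1 (chr17:10672474-10698375) and ATPAF2 (chr17:17977409-18039209) all lie on the short arm of chromosome 17. In SUDHL16 without CE-26, the protein-coding genes tested up to 5 Mb to either side had median log2 fold changes of 0.84 around TTC19, 0.85 around COX10, 0.96 around SCO1 and 0.84 around ATPAF2, where the median of all genes was 0.05. These 4 stretches overlap one another, so the 4 medians are not separate. TTC19, at 1.09, was above its neighbours' median, and 16 of its 56 neighbours were above it. COX10 (0.26), SCO1 (0.42), a copper chaperone of COX2, and ATPAF2 (0.24) were below theirs and did not pass. In SUDHL6 the median around any member was between −0.10 and 0.22. There, none of the 57 neighbours of COX10 had a log2 fold change above its 0.40.

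The other members called in SUDHL16 lay apart from their neighbours' medians. COX20 (chr1:244835616-244845057, plus strand) had a neighbour median of −0.09 without CE-26, and 1 of 30 neighbours was above its 1.67. COX16 (chr14:70325081-70416984, minus strand) had a neighbour median of 0.14, and 60 of 61 neighbours were above its −1.16. In SUDHL6, 1 of 28 neighbours was above COX20. Around COA3 (chr17:42795147-42798704), on the long arm of chromosome 17, the neighbours had a median of −0.39 in SUDHL16 without CE-26, and 139 of 148 were above its −1.05.

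**Figure D5:**
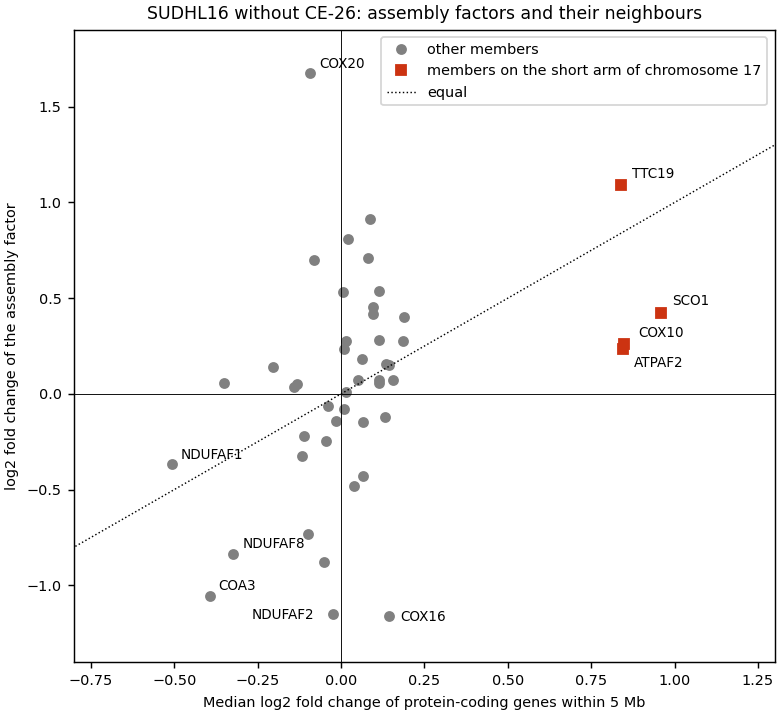
Log2 fold change of each assembly factor in SUDHL16 without CE-26 (vertical axis) against that of its neighbours, as the median over tested protein-coding genes up to 5 Mb to either side (horizontal axis). Red squares are the 4 members on the short arm of chromosome 17, whose neighbours had medians of 0.84 to 0.96, and the dotted line marks equal values. COX20 and COX16 lie far from it, with neighbour medians of −0.09 and 0.14.

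Reads from overlapping genes could bear on some of these values, since the strand setting of the counting is not given in the sources used here. Exon bases were shared with another protein-coding gene by 28 of the 47 members, and over 20% of them with one such gene by 10. COX20 shares 76.6% of its exon bases with HNRNPU on the opposite strand, which was far more abundant (936 to 964 CPM in SUDHL6). In SUDHL16, HNRNPU had 368 to 447 CPM in parental and 239 to 343 CPM in resistant libraries, the direction opposite to COX20, and in SUDHL6 its log2 fold change was −0.03 (edgeR adjusted p = 0.167). COX16 shares 37.8% with the read-through gene SYNJ2BP-COX16, which had at most 0.224 CPM. It also shares 4.43% with SYNJ2BP on the same strand, which had 23.1 to 97.8 CPM in SUDHL16 parental and 8.98 to 18.6 CPM in resistant libraries, the same direction as COX16 (log2 fold change −1.86, edgeR adjusted p = 0.123, and −0.86 without CE-26). COA3 shares 42.3% with WNK4 on the opposite strand, which had 11.4 to 15.5 CPM in SUDHL16 parental and 5.83 to 12.3 CPM in resistant libraries. SDHAF2 shares 44.8% with ENSG00000256591 on the same strand, at 2.35 to 4.499 CPM in SUDHL6. In SUDHL16 that gene had 20.3 to 109.9 CPM in parental and 10.2 to 27.5 CPM in resistant libraries, the same direction as SDHAF2 (log2 fold change −1.55, edgeR adjusted p = 0.25, and −0.40 without CE-26). TTC19 shares 5.62% with NCOR1 on the opposite strand, which lies beside it and had a log2 fold change of 0.90 in SUDHL16 (edgeR adjusted p = 0.167). The part of these overlaps in the members' values was not tested.

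The other genes of the pathway were counted in the same way. Of 19 further assembly factors tested, 7 passed the adjusted p in SUDHL6 (37.3% of all genes), 3 higher and 4 lower. Their log2 fold changes ran from −0.27 for NDUFAF5, a complex I hydroxylase, to 0.21 for COX7A2L, which joins complexes III and IV into supercomplexes. The median of the 19 was 0.01 in SUDHL6, −0.02 in SUDHL16 and 0.11 without CE-26, and edgeR called 0 of them in SUDHL16. There, 1 had an unadjusted p under 0.05 both with CE-26 (19.1% of all genes) and without it (23.3%). Among the nuclear-encoded subunits, the 37 of complex I had medians of 0.03, 0.13 and 0.25 in the same order, and the 11 of complex IV 0.03, 0.00 and 0.25. The 17 of complex V had medians of −0.03, 0.03 and 0.08, with 14 of 17 below 0 in SUDHL6. There, 1 passed the adjusted p higher (17.7% of all genes) and 3 lower (19.7%). All 13 mitochondrially encoded subunits were above 0 in SUDHL6 (50% of all genes), with a median of 0.14, and 11 of them passed the adjusted p (37.3%). Mitochondrial genes took 5.60% to 5.61% of the counts in SUDHL6 parental and 6.34% to 6.63% in SUDHL6 resistant libraries. The 13 may therefore not be separate observations. In SUDHL16 the median of these 13 was −1.16, and 0.37 without CE-26, and none passed there. At an unadjusted p under 0.05 there were 2 with CE-26 (19.1% of all genes) and 0 without it (23.3%). Of the nuclear-encoded subunits, COX5A of complex IV was called in SUDHL16, with 16.1 ± 2.83 CPM in parental and 52.3 ± 28.8 CPM in resistant libraries (SD, n = 3, log2 fold change 1.71, edgeR adjusted p = 0.042).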

How the data were processed

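Total RNA was sequenced from 12 libraries, 3 of each parental and resistant line. The authors trimmed reads with Trim Galore, aligned them to GRCh38 with HISAT2 and used StringTie and edgeR, and they deposited for each library whole-number counts per Ensembl gene, without normalization. The counting tool, its annotation and its strand setting are not given in the sources used here, so overlapping genes could have shared or split reads. Of 60675 identifiers, 56558 (93.2%) were in GENCODE release 44, which gave symbols, positions and exon lengths.

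Groups were taken from the labels. No libraries held identical counts. Nothing states that libraries of a group came from separate cultures, so the p-values measure the spread between these libraries, which may be technical. Genes were filtered with filterByExpr (minimum count 10) and scaled by TMM in edgeR 4.0.16 (R 4.3.3), and each line was tested in its own quasi-likelihood fit of all genes, and the difference between lines as an interaction. Calls needed an adjusted p under 0.05 together with 1.5-fold or more. CPM are on the TMM scale, computed from all 6 libraries of a line, and the heat map used log2(CPM + 0.5). Depth limits the precision most in CE-26, in which 1 member had fewer than 10 counts. Alternatives were DESeq2 1.42.0, limma 3.58.1 voom with quality weights, upper-quartile scaling, library totals, no filter, protein-coding genes only, a single fit of both lines, and each library left out in turn. The fit was also run on simulated counts with the same biological coefficient of variation per gene in all libraries. Such counts cannot speak to the composition of CE-26. Tables and figures were made with pandas 2.3.3 and matplotlib 3.10.9 in Python 3.11.15.

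The members and lists were chosen with earlier results of these data known. Values by library are given for 12 members, namely those called in a fit or past the difference between the lines, then those with the smallest unadjusted p, taken in turn from SUDHL6 and from the SUDHL16 fit that leaves out CE-26. Members named for CE-26 or for position were chosen after their values were seen. Promoter windows are from RefSeq. A planned description of protein sequence features was not run, since no protein sequences were used here. A marker gene on one of the lists is not reported here.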

Additional observations from a re-analysis of the deposited data

Results flagged for a closer look

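The members whose response differed between the lines by the interaction test in edgeR were picked out for a closer look. With all 12 libraries, the difference of the log2 fold changes (SUDHL16 minus SUDHL6) was 1.14 for TTC19 (adjusted p = 0.00129) and −0.81 for SDHAF2 (adjusted p = 0.0429). Without CE-26 it was 1.16 for TTC19 (adjusted p = 2.77e-04), −0.92 for SDHAF2 (0.00465), −1.07 for COX16 (0.00213), 1.11 for COX20 (0.0213), 0.52 for ATPAF1 (0.0272) and −0.88 for TMEM126A (0.0423). TTC19, SDHAF2, ATPAF1 and TMEM126A had opposite signs in the 2 lines, whereas COX16 and COX20 had the same sign and a larger change in SUDHL16. Kit and instrument differed between the lines and cannot be told apart from them. The lines also shared an estimate of the spread in this test, so its p-values may be too small.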

How the results depend on the processing

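No paired analysis was possible because the labels give the libraries no replicate numbers that the groups share. In SUDHL6, the count of members called was 0 and became 0 to 1 when a library was left out (1, COX20, without CE-7), and the 19 members past the adjusted p became 14 to 16, or 0 when both lines were fitted together and shared one estimate of the spread. The SUDHL6 median of 0.02 became 0.0156 to 0.061, the highest without CE-8. In SUDHL16, the 1 member called became 3 with DESeq2, 0 with library totals, 0 with no filter, 2 with protein-coding genes only, 8 in the fit of both lines, 5 with voom, and 0 to 3 with a library left out. The count past the adjusted p was the same in each of these except for 10 in the fit of both lines. The SUDHL16 median of −0.07 became 0.109 with library totals, 0.0789 with no filter, −0.186 with upper-quartile scaling, 0.0576 with voom and −0.124 to 0.0727 with a library left out. Without CE-26, the 3 called became 10 in the fit of both lines, where 14 passed the adjusted p, and 0 to 4 with a further library left out, with 0 when it was CE-25 or CE-27, and the median of 0.07 became 0.0399 to 0.170. A fit that leaves 1 parental library assumes that it varies like the others. The fit of both lines shared the smaller spread of SUDHL6 with SUDHL16, so its counts for SUDHL16 may be too large. The 2 members that differed between the lines became 1 with library totals, 1 with no filter, 6 without CE-26, and 1 to 6 with a library left out. COX15 in SUDHL16 turned from −0.09 to 0.0917 with library totals, 0.0527 with no filter and 0.123 with voom, and lay between −0.217 and 0.148 with a library left out, the latter without CE-26. COX14 in SUDHL6 turned from 0.01 to −0.0064 without CE-7, −0.0039 without CE-10 and −0.0191 without CE-12, in a range up to 0.0540. Apart from the scaling, filter and libraries named, the cause was not tested. Depth limits CE-26, in which SURF1 had 2 reads.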
